A study of Mus musculus with 4 samples.

Results

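The core circadian clock genes were followed in adrenal glands of V1a knockout and wild-type mice through every probe set that the platform annotation gives to exactly 1 of 10 genes: Arntl, Clock, Per1, Per2, Per3, Cry1, Nr1d1, Nr1d2, Dbp and Tef. This gave 25 of the 45037 probe sets of the array. Tests were run on the probe sets that were at or above 4 log2 units on 2 arrays or more, which 13 of the 25 and 17228 of all probe sets were. The 13 read 9 of the 10 genes, and Per3 had no tested probe set. RNA of adrenal glands from male mice, 2 months old, was measured on 4 short-oligonucleotide arrays, 2 from mice lacking V1a (V1aKO), a vasopressin receptor that signals through Gq and calcium, and 2 from wild-type mice (WT). The deposited values are log2 expression units, and each difference is V1aKO minus WT. The sources used here do not give the strain, the deleted part of Avpr1a, the hour at which glands were taken or whether each array is a separate animal. The p-values therefore measure only the spread between these arrays, which may be technical.

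The circadian clock of a mammalian cell is a feedback loop of transcription. BMAL1, the product of Arntl, pairs with CLOCK and binds E-box sequences to switch on the Per and Cry genes, whose proteins then inhibit the pair. The same pair switches on Nr1d1 and Nr1d2, which encode the REV-ERB receptors that repress Arntl, and Dbp and Tef, transcription factors that carry the rhythm to further genes through D-box sequences. Arntl therefore peaks at a time of day when most E-box targets are low. In the adrenal cortex this clock shapes how strongly the gland answers ACTH, and Per1 and Per2 are also induced within a short time by cAMP signalling, glucocorticoids or light reaching the gland through its nerves.

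Promoters show which of these elements the members carry near their start sites, and those printed here belong to genes whose values varied widely between arrays, as described further on. Sequences come from RefSeq on GRCm38.p6, 250 bases before to 50 after a start, and 9 of the 10 genes had at least 1 of 14 windows. Capitals mark matches, on either strand, to CACGTG (E-box), CACGTT (a variant called the E-prime box), AGGTCA (the core of sites bound by ROR and REV-ERB receptors) or the D-box TTANGTAA. No pair of these motifs overlapped in a printed window.
Per1, chr11:69098699-69098998, plus strand, with a CACGTG and an AGGTCA match: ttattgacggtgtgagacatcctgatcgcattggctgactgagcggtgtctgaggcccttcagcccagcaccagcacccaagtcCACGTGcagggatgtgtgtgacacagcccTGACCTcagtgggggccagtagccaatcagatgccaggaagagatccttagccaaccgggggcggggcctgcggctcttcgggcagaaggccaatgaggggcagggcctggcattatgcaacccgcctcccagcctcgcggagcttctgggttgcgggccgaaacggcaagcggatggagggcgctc
Per3, chr4:151044616-151044915, minus strand, with 2 D-box matches: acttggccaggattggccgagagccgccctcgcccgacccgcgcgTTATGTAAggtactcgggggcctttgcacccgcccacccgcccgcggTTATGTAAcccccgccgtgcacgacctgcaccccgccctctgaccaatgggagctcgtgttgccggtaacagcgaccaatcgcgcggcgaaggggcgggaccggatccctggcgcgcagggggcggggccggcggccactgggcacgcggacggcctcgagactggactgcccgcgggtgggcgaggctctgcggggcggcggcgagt
Tef, chr15:81802423-81802722, plus strand, with a CACGTG match: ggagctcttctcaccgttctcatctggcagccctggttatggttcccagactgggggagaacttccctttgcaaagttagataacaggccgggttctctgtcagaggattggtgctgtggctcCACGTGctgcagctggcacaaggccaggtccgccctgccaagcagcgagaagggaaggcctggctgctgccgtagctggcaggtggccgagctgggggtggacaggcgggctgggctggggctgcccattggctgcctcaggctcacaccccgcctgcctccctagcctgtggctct
Arntl, chr7:113207261-113207560, plus strand, with an AGGTCA match past the start: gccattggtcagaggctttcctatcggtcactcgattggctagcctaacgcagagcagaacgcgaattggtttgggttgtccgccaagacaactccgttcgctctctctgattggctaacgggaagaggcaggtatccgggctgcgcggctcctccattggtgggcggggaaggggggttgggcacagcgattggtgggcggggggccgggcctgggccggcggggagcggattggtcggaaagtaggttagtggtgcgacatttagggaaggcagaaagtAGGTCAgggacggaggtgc
Nr1d2, chr14:18239057-18239356, minus strand, with an AGGTCA match: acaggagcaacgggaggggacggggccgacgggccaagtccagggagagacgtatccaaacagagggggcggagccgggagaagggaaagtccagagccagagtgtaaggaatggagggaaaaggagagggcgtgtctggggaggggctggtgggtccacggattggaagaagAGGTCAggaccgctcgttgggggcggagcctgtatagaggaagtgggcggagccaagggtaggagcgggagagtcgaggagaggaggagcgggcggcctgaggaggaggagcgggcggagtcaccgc

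CACGTG lay in 4 of the 14 windows of clock genes (those of Per1, Cry1 and Tef) and in 7.15% of the 32851 windows of all genes. AGGTCA lay in 4 of the 14 (those of Arntl, Clock, Per1 and Nr1d2), against 16.3% of all windows. CACGTT lay in 2 of the 14 (those of Cry1 and Nr1d1), against 4.68% of all, and the D-box in 1 of the 14 (that of Per3), against 2.32% of all. A window without a match says only that these letters are not in it.

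The arrays matched the labelled tissue, and 1 array stood apart. All 12 adrenal cortex markers named on the array, from Star to Nr5a1, and all 16 chromaffin cell markers reached 4 log2 units on every array. WT array 1 correlated with the other 3 arrays at 0.919 to 0.924 across tested probe sets, while the other 3 correlated with each other at 0.974 to 0.986. It was the highest or the lowest of the 4 arrays in 73.9% of tested probe sets. Liver markers, whose defining gene is Alb, reached 4 log2 units in 7 of 9 named genes on WT array 1, against 1 of 9 on each V1aKO array and 2 of 9 on WT array 2. Their summed linear level was 115.1 and 360.1 on the V1aKO arrays, and 1919 and 277.0 on the WT arrays. Alb itself read 2.43 and 2.43 on the V1aKO arrays, and 8.86 and 2.42 on the WT arrays. Outside WT array 1, the liver markers at or above 4 log2 units were Hp and, on WT array 2, Serpina1b. The part of liver markers in the clock values was not tested. Avpr1a itself read 2.31 to 2.60 on all 4 arrays, close to the lowest value of the table, 2.30, and so does not check the genotype labels.

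No clock probe set passed the test of V1aKO against WT, the comparison that asks which adrenal transcripts change when the receptor is missing. In limma, 0 of 13 passed an adjusted p of 0.05, where 0% of all 17228 tested probe sets did, and 0 of 13 passed an unadjusted p of 0.05, where 5.14% of all did. The mean was higher in V1aKO for 9 of the 13 and lower for 4, and 6 of the differences were smaller than their own standard error. The V1aKO and WT arrays did not overlap in 3 of 13 (1 probe set each of Clock, Dbp and Tef), where 37.4% of all tested probe sets did not. By gene, taking for each the tested probe set with the highest mean, the median difference was 0.08 over 9 clock genes (-0.11 without WT array 1) and -0.05 over all 10110 genes. Without WT array 1, 2 of 13 passed the unadjusted threshold, Per1 and Nr1d2, where 12.0% of all did, and without WT array 2, 7 of 13 did, where 37.8% of all did. In 9 of the 13 the gap between the 2 WT arrays was larger than the difference between genotypes. The WT gap was also the larger over all tested probe sets, with a median size of 0.44 against 0.24. A gap between single arrays varies more than a difference of 2-array means. Shares over all tested probe sets were not counted for this gap, for the direction of the mean or for the standard error.

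**Figure D1:**
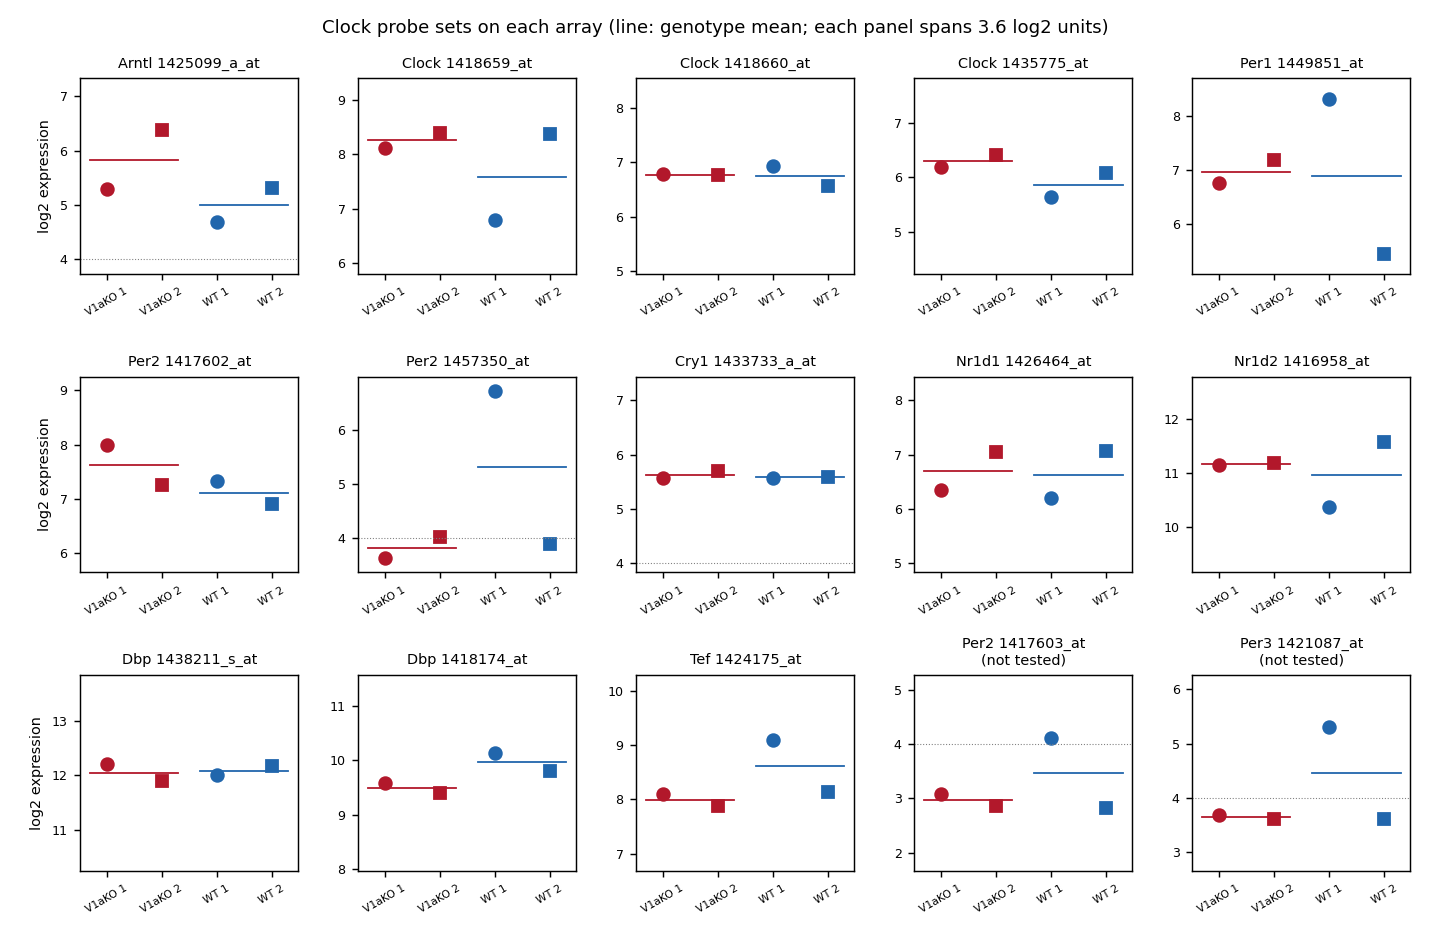
Log2 expression of the 13 tested clock probe sets and of 2 others that reached 4 on 1 array, with V1aKO arrays in red and WT arrays in blue (circle, array 1; square, array 2; line, mean of 2 arrays; dotted line, 4 log2 units). Per1 had its highest and its lowest value on the 2 WT arrays, 8.31 and 5.45.

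Arntl (gene ID 11865, chr7:113178471-113314126), which encodes BMAL1, read 5.29 and 6.38 on the V1aKO arrays and 4.69 and 5.31 on the WT arrays in probe set 1425099_a_at. V1aKO array 2 was high and WT array 1 low, while V1aKO array 1 and WT array 2 lay together, so that the genotypes overlapped. The difference was 0.83 (SE 0.48, 95% interval -0.55 to 2.21, limma adjusted p = 0.794, n = 2 per genotype), and it was 1.38 without V1aKO array 1 and 0.29 without V1aKO array 2. The other probe set of Arntl, 1457740_at, was at the floor of 2.30 on every array. Macrophage markers had summed linear levels of 6084 and 8969 on the V1aKO arrays and 4231 and 5218 on the WT arrays, with 10 of 11 named markers at or above 4 log2 units on each array and Cd163 below it. V1aKO array 2 was the highest and WT array 1 the lowest for this sum, but gene by gene WT array 1 was the lowest in only 3 of the 10 tested markers and the highest in 3. C1qb, a complement subunit, read 10.46 and 10.54 in V1aKO, against 6.31 and 9.97 in WT. The related subunits C1qa and C1qc did not share its low value on WT array 1. C1qa read 8.26 and 8.62 in V1aKO, against 8.38 and 8.21 in WT. C1qc read 6.91 and 7.34 in V1aKO, against 7.19 and 6.53 in WT. The part of these markers in the values of Arntl was not tested.

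Clock (gene ID 12753, chr5:76209868-76305603), the partner of BMAL1, had 3 tested probe sets that did not agree. Probe set 1418659_at read 8.12 and 8.40 in V1aKO, against 6.79 and 8.37 in WT, a difference of 0.68 (SE 0.60). WT array 1 alone was low, and without it the difference was -0.11. Probe set 1435775_at read 6.19 and 6.41 in V1aKO, against 5.64 and 6.09 in WT, with both V1aKO arrays above both WT arrays, as in 17.4% of all tested probe sets. This difference was 0.44 (SE 0.24, 95% interval -0.25 to 1.12, limma adjusted p = 0.794), or 0.21 to 0.66 leaving out each array in turn. Probe set 1418660_at read 6.78 and 6.77 in V1aKO, against 6.92 and 6.57 in WT, a difference of 0.03 (SE 0.20), and here WT array 1 was the highest array. A further probe set, 1439314_at, stayed at 2.45 to 2.85 and was not tested.

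Per1 (gene ID 18626, chr11:69095108-69109965), the Period gene with an E-box in the window printed above, read 6.75 and 7.18 on the V1aKO arrays and 8.31 and 5.45 on the WT arrays. Both V1aKO arrays lay between the WT arrays, which were 2.86 log2 units apart. The difference between genotypes was 0.08 (SE 1.07, 95% interval -2.97 to 3.13, limma adjusted p = 0.994). Its sign depended on which WT array was kept. It was 1.51 without WT array 1 and -1.35 without WT array 2.

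Per2 (gene ID 18627, chr1:91415977-91459351), the other light- and hormone-responsive Period gene, read 8.00 and 7.25 in V1aKO and 7.33 and 6.90 in WT with probe set 1417602_at. V1aKO array 1 was high and the rest lay within 0.42, a difference of 0.51 between genotypes (SE 0.35, limma adjusted p = 0.794) that was 0.14 without V1aKO array 1 and 0.88 without V1aKO array 2. Probe set 1457350_at read 3.63 and 4.02 in V1aKO, against 6.72 and 3.90 in WT. Only WT array 1 was clearly above the filter. The difference of -1.49 (SE 1.05) became -0.08 without that array and -2.90 without WT array 2. Probe set 1457350_at was the single clock probe set with a difference of at least 2-fold, where 5.29% of all tested probe sets had one. Probe set 1417603_at, not tested, read 3.08 and 2.87 in V1aKO, against 4.12 and 2.82 in WT.

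Per3 (gene ID 18628, chr4:150997018-151044707), a Period gene that the loop can run without, had 6 probe sets and none tested. Probe set 1421087_at read 3.68 and 3.61 in V1aKO and 5.31 and 3.61 in WT, and probe set 1421086_at read 2.58 and 2.58 in V1aKO and 3.95 and 2.58 in WT. WT array 1 was the high array in both, and the other 3 arrays lay within 0.07 of each other. The other 4 probe sets of Per3 read 2.30 to 2.42 on every array.

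Cry1 (gene ID 12952, chr10:85131700-85185054), which encodes the cryptochrome that closes the loop with PER proteins, was the steadiest member. It read 5.58 and 5.70 in V1aKO, against 5.58 and 5.58 in WT, a difference of 0.05 (SE 0.16, 95% interval -0.40 to 0.51, limma adjusted p = 0.934). The whole interval lies within a 2-fold change either way, and the values of all 4 arrays spanned 0.12. Its window held both a CACGTG and a CACGTT match.

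Nr1d1 (gene ID 217166, chr11:98767932-98775377), which encodes REV-ERB alpha, read 6.34 and 7.05 in V1aKO and 6.20 and 7.06 in WT. In each genotype array 1 was the lower, by 0.71 in V1aKO and 0.86 in WT, and the difference was 0.06 (SE 0.44, limma adjusted p = 0.978). Nr1d2 (gene ID 353187, chr14:18204056-18239106), which encodes REV-ERB beta, read 11.15 and 11.18 in V1aKO, against 10.38 and 11.56 in WT. The V1aKO arrays were 0.02 apart and lay between the WT arrays, which were 1.18 apart. The difference was 0.20 (SE 0.46, limma adjusted p = 0.910) and was -0.40 without WT array 1 and 0.79 without WT array 2. A weak probe set of Nr1d2, 1416959_at, read 2.35 to 3.08, highest on WT array 1, and was not tested.

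Dbp (gene ID 13170, chr7:45705100-45710203), an output factor that usually has one of the widest daily ranges in peripheral tissues, gave the smallest p of the 13. Probe set 1418174_at read 9.59 and 9.40 in V1aKO, against 10.14 and 9.81 in WT. Both V1aKO arrays lay below both WT arrays, as in 20.0% of all tested probe sets, and the difference was -0.48 (SE 0.21, 95% interval -1.08 to 0.12, limma unadjusted p = 0.0876, adjusted p = 0.794), or -0.65 to -0.31 leaving out each array in turn. The brighter probe set, 1438211_s_at, read 12.21 and 11.89 in V1aKO, against 12.00 and 12.17 in WT, overlapped, and differed by -0.04 (SE 0.20), or 0.0075 with quantile normalization. The probe sets of Dbp thus did not give the same order of arrays.

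Tef (gene ID 21685, chr15:81802673-81826863), which encodes a relative of DBP, read 8.10 and 7.89 in V1aKO and 9.09 and 8.13 in WT with probe set 1424175_at. Both V1aKO arrays were the lower, WT array 2 lay just above V1aKO array 1, and the difference was -0.62 (SE 0.39, 95% interval -1.74 to 0.50, limma adjusted p = 0.794). Without WT array 1 it was -0.14 and without WT array 2 -1.10. Its other probe sets, 1450184_s_at and 1438033_at, read 2.37 to 2.41 on every array.

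**Figure D2:**
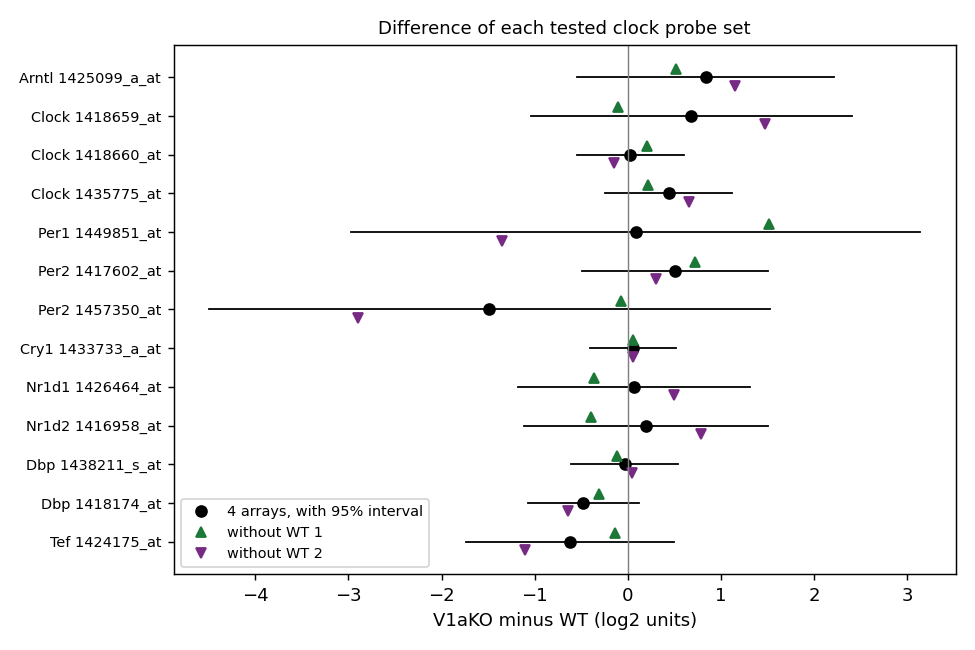
V1aKO minus WT (log2 units, x axis) for each tested clock probe set, with the 4-array value and its 95% interval from limma in black and the values without WT array 1 or WT array 2 as triangles. All 13 intervals cross 0, and the values for Per1 moved to 1.51 and -1.35 when 1 WT array was left out.

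The arms of the loop were then set against each other on each array. A gene's deviation is its log2 value minus its own mean over the 4 arrays, and an arm's value is the mean deviation of its genes. The activator arm, Arntl and Clock, stood at 0.04 and 0.72 on the V1aKO arrays and at -0.93 and 0.17 on the WT arrays. It was low on WT array 1 in both genes, with Arntl at -0.73 and Clock, represented by its brightest probe set, at -1.13. Of the other tested probe sets of Clock, 1435775_at was also lowest on that array, but 1418660_at was highest there. The difference of the arm between genotypes was 0.76, beside a pooled SD within genotypes of 0.65, and it was 0.21 without WT array 1.

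The repressor arm, Per1, Per2, Cry1, Nr1d1 and Nr1d2, stood at 0.04 and 0.14 on the V1aKO arrays and at 0.03 and -0.21 on the WT arrays. This mean hides genes that went opposite ways. On WT array 1 Per1 was at 1.39 while Nr1d1 was at -0.46 and Nr1d2 at -0.69, and on WT array 2 Per1 was at -1.47 while Nr1d1 was at 0.40 and Nr1d2 at 0.49. On the V1aKO arrays Per2 was at 0.63 and -0.12 and Nr1d1 at -0.32 and 0.39. The arm differed by 0.18 between genotypes (pooled SD 0.13), by 0.30 without WT array 1 and by 0.06 without WT array 2. The output arm, Dbp and Tef, stood at -0.03 and -0.30 on the V1aKO arrays and at 0.36 and -0.03 on the WT arrays, a difference of -0.33 (pooled SD 0.24), or -0.13 without WT array 1 and -0.53 without WT array 2. Tef made it high on WT array 1, at 0.79, while Dbp, represented by its brighter probe set, was at -0.06 there, and its other probe set was highest on that array.

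The repressor arm minus the activator arm gave an index, here called the index of phase, for each array. It was 0.00 and -0.57 on the V1aKO arrays and 0.96 and -0.38 on the WT arrays. The hour of collection is not given, so the index does not place an array in the day. WT array 1 was the highest array by a wide margin, V1aKO array 1 lay at a tie of the arms, and WT array 2 lay between the V1aKO arrays. WT array 1 was also the highest or the lowest of the 4 arrays in 73.9% of all tested probe sets. With Arntl alone as the activator arm V1aKO array 1 was at 0.16 and WT array 1 at 0.76. The genotypes differed by -0.58, which is smaller than the pooled SD within genotypes of 0.73, and the difference was 0.10 without WT array 1 and -1.25 without WT array 2. With 2 arrays per genotype an exact permutation test cannot go below p = 0.333, and no test was made of this index. Taking Per1, Per2, Nr1d1, Nr1d2, Dbp and Tef together against Arntl and Clock left WT array 1 at 1.08 and the others at -0.71 to -0.01.

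**Figure D3:**
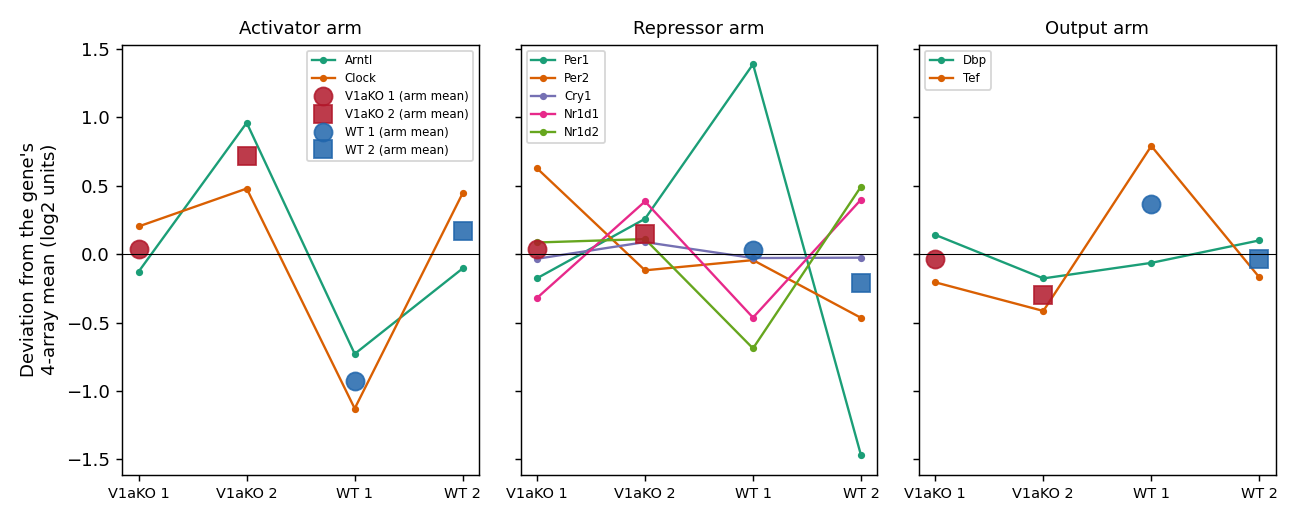
Deviation of each clock gene from its own 4-array mean (log2 units, y axis) on each array, by arm; lines join the values of 1 gene, and large markers are the arm means of V1aKO (red) and WT (blue) arrays. The activator arm was lowest on WT array 1, at -0.93, while in the repressor arm Per1 and the Nr1d genes moved in opposite directions on the WT arrays.

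Arrays of the same genotype differed among themselves, WT more than V1aKO. The median size of the gap between the WT arrays was 0.62 over the 13 clock probe sets and 0.44 over all tested ones. Between the V1aKO arrays it was 0.28 over the 13 and 0.15 over all. A gap of at least 2-fold between the WT arrays was found in 4 of 13, in Clock, Per1, Per2 and Nr1d2, where 15.8% of all tested probe sets had one, and between the V1aKO arrays in 1 of 13, Arntl, where 1.97% of all had one. WT array 1 was the highest of the 4 in 5 of 13 (47.1% of all) and the lowest in 5 of 13 (26.8% of all). Nr1d1 and Nr1d2 were the 2 of 13 with their lowest value on WT array 1 and their highest on WT array 2, an order that 8.35% of all tested probe sets had. In bulk tissue, fewer cells of a type and less RNA per cell cannot be told apart.

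Among 28 further clock genes, 26 were named on the array, 20 were tested, and 1 passed an unadjusted p of 0.05, a share close to the 5.14% of all tested probe sets. This was Nampt, a rhythmic enzyme of NAD synthesis, at 7.93 and 7.30 in V1aKO and 8.70 and 8.40 in WT. Both V1aKO arrays were lower, by -0.93 (SE 0.30, limma unadjusted p = 0.0394, adjusted p = 0.794). Of the 20, 5 were higher and 15 lower in V1aKO, with a median of -0.20, and the median turned to 0.16 without WT array 1. WT array 1 was the highest array in 15 of the 20, where it was in 47.1% of all tested probe sets. Nfil3, a repressor that competes with DBP and TEF for the D-box, read 5.61 and 5.68 in V1aKO and 8.71 and 3.79 in WT, the widest gap between WT arrays among these genes. Usp2, a rhythmic deubiquitinase, read 8.16 and 6.71 in V1aKO, against 9.71 and 6.25 in WT, and Hlf, the third member of the DBP and TEF family, read 5.29 and 5.20 in V1aKO, against 5.94 and 5.08 in WT. Npas2, Arntl2, Rorb, Bhlhe41, Ciart and Fbxl21 were too dim to test. The genotypes did not overlap in 6 of the 20, where 37.4% of all tested probe sets did not. Beside Nampt these were Gsk3b, Fbxw11, Kdm5a and Sirt1, higher in both V1aKO arrays, and Wee1, lower in both, none past an unadjusted p of 0.05.

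Immediate-early genes, which cells switch on within a short time of a stimulus, mostly had their highest value on WT array 1, as Per1 did. Of 23 immediate-early genes 19 were tested, and 15 of the 19 were highest on WT array 1, against 47.1% of all tested probe sets. In 11 of the 19 WT array 1 was the highest and WT array 2 the lowest, the same order as in Per1, where 18.9% of all tested probe sets had this order. Egr1, an immediate-early zinc finger factor, read 10.04 and 10.77 in V1aKO and 12.38 and 8.65 in WT. Their median was 1.99 for WT array 1 minus WT array 2 and -0.27 between genotypes (0.62 without WT array 1), and 0 of 19 passed an unadjusted p of 0.05. Junb and Jund, subunits of AP-1, had the smallest p, at -2.76 and -0.27 (unadjusted p = 0.0884 and 0.245). Among 13 tested genes known to be induced by glucocorticoids, 0 passed, 10 were highest on WT array 1 (47.1% of all), and the smallest p belonged to Mt1, a metallothionein, at -0.69 (unadjusted p = 0.0641), and Sgk1, a kinase, at 0.89 (unadjusted p = 0.0732). Their median between genotypes was -0.24 and became 0.04 without WT array 1. The part of either group of genes in the values of Per1 and Per2 was not tested.

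**Figure D4:**
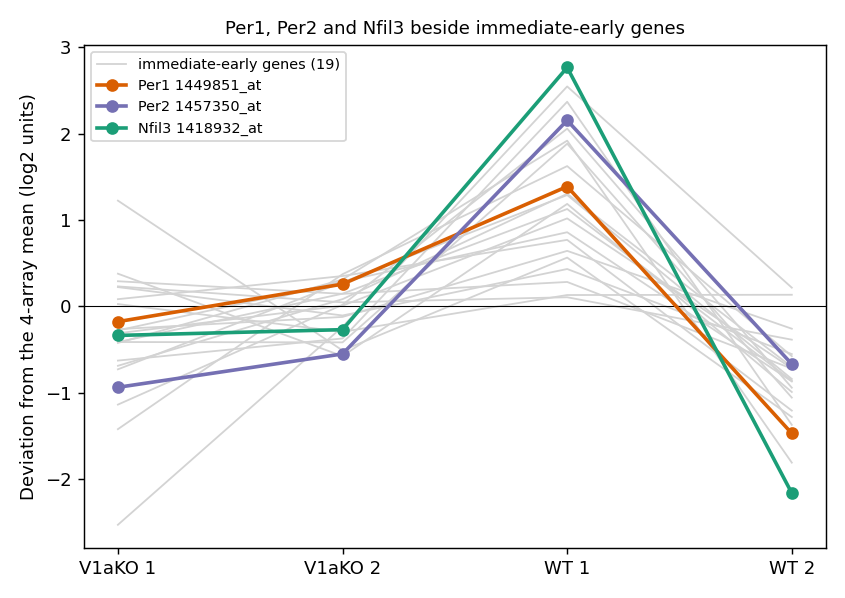
Deviation from the 4-array mean (log2 units, y axis) on each array for Per1, the Per2 probe set 1457350_at and Nfil3 in colour and for 19 immediate-early genes in grey; lines join the values of 1 gene. Per1 and Nfil3, like 11 of the 19, had their highest value on WT array 1 and their lowest on WT array 2. The brighter Per2 probe set, 1417602_at, is not drawn. It was highest on V1aKO array 1, at 8.00, against 7.33 on WT array 1.

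Other cell types also varied between arrays. Chromaffin cell markers had summed linear levels of 81670 and 54980 on the V1aKO arrays and 83060 and 54800 on the WT arrays. This sum was higher on array 1 in both genotypes, but single markers went the other way. Insm1 read 5.42 on WT array 1 and 7.76 on WT array 2, and Slc18a2 read 6.40 and 6.80. Penk read 6.92 on V1aKO array 1 and 7.08 on V1aKO array 2. Adrenal cortex markers summed to 110700 and 105900 in V1aKO and to 117300 and 114900 in WT. Adipocyte markers summed to 6088 and 13220 in V1aKO and to 12250 and 8536 in WT, with 8 of 13 named markers at or above 4 log2 units on V1aKO array 1 and 11 of 13 on each of the other arrays. Gene by gene, WT array 1 was the highest in 6 of 11 tested markers (47.1% of all tested probe sets). Both V1aKO arrays were lower in 3 of 11 (20.0% of all). Of these, Ucp1 read 2.80 and 5.91 in V1aKO, against 10.05 and 7.24 in WT. Cidea read 3.37 and 6.06 in V1aKO, against 9.78 and 6.78 in WT. Of 6 erythroid markers 3 were named on the array, and these summed to 36.02 and 49.85 in V1aKO and to 727.1 and 39.64 in WT. Alas2, the 1 tested, read 4.67 and 5.30 in V1aKO, against 9.46 and 4.87 in WT. Slc4a1 was also highest on WT array 1, at 4.16, while Hba-a1 read 2.30 on every array. Of all these cell type markers, 3 passed an unadjusted limma p of 0.05, where 5.14% of all tested probe sets did. They were 1 of 2 tested liver markers, 1 of 11 adipocyte markers and 1 of 16 chromaffin cell markers, all lower in both V1aKO arrays. Serpina1b, a liver-secreted protease inhibitor, read 2.30 and 2.30 in V1aKO, against 7.97 and 7.199 in WT, a difference of -5.28 (SE 0.32, limma adjusted p = 0.245). The adipocyte glucose transporter Slc2a4 differed by -1.56 and the enkephalin precursor Penk by -0.88, each at a limma adjusted p = 0.794. The part of these cells in the clock values was not tested.

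The genes closest to Arntl in pattern over the 4 arrays, by the root mean square difference of deviations among 10101 other genes, were Mcam at 0.05, Slc15a3 at 0.13 and Cd68 at 0.14 log2 units. Only 1 gene lay within 0.1 of Arntl. Mcam, a cell adhesion molecule, read 5.31 and 6.29 in V1aKO, against 4.69 and 5.36 in WT. Cd68, a macrophage marker, read 6.10 and 7.14 in V1aKO, against 5.17 and 5.84 in WT. For Dbp, whose brighter probe set varied little, 193 genes lay within 0.1, and the closest were Esf1, Rcc1l and Fzr1, at 0.01 to 0.02. Likeness over 4 arrays is a description, and among so many genes some lie close to any pattern.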

How the data were processed

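The 2 V1aKO and 2 WT samples were read on Mouse Genome 430 2.0 arrays. The authors deposited log2 values per probe set from the gcRMA package (Bioconductor 3.14), per the labels' protocols. The log2 scale was inferred from the range, 2.30 to 14.92, and a package version is not given in the sources used here. GCRMA gathers dim probe sets near a floor, which compresses their differences. The values were used as deposited, without 64 control probe sets. The platform annotation gave 1 gene to 34945 of 45037 probe sets, several to 932 and none to 9160. Those with several were not used, and 34741 matched GRCm38.p6 by gene ID with 0 symbols changed.

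Genotypes, as labelled, were compared with limma 3.58.1 under R 4.3.3 (lmFit, eBayes, no covariate) over 17228 tested probe sets with Benjamini-Hochberg adjustment, on 2 residual and 1.73 prior degrees of freedom. SE is limma's moderated standard error; each SD covers 1 genotype's arrays. No arrays were duplicates: 1.09% to 1.65% of tested values were equal between arrays. The number of arrays limits the precision. In simulated arrays of this comparison with 17228 probe sets, an unadjusted p of 0.05 called 72.2% of changes of 1 log2 unit. It called 92.4% of changes of 2, and the adjusted threshold called 0% of both. No simulated array stood apart as WT array 1 did. The SE of the tested clock probe sets ran from 0.16 to 1.07, so these shares need not hold for them.

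The members and lists were chosen with earlier results of these data known. Named were all members, genes of the further clock, glucocorticoid-induced and immediate-early lists past an unadjusted p of 0.05 or otherwise the 2 with the smallest p in a list (cell type markers are given as sums), Avpr1a, and the 3 genes most like Arntl and Dbp. C1qa, C1qb, C1qc, Alb, Hp, Serpina1b, Alas2, Hba-a1, Slc4a1, Slc2a4, Ucp1, Cidea, Penk, Insm1, Slc18a2, Nfil3, Usp2, Hlf, Egr1, Gsk3b, Fbxw11, Kdm5a, Sirt1 and Wee1 were named after their values were seen. Summed linear levels add 2 to the power of the log2 value over named markers, 1 probe set per gene. Alternatives were other filters, normalizations, variance models and arm members, a replicate block, each array left out, plain probe sets and means of probe sets.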

Additional observations from a re-analysis of the deposited data

How the results depend on the processing

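The adjusted threshold called 0 clock probe sets under every alternative run, and the unadjusted one 0 to 7 when each array was left out in turn: 2 of 13 without WT array 1 (Per1 and Nr1d2, where 12.0% of all passed), 7 of 13 without WT array 2 (where 37.8% passed), and 0 without either V1aKO array. Such a fit takes the spread of the genotype with 1 array from the other. Over all probe sets, 169 to 6507 passed the unadjusted threshold and 0 the adjusted one when an array was left out, against 885 and 0 with all arrays. Without a filter 1545 of 45037 passed the unadjusted threshold, and 2 passed the adjusted one, neither of them a clock probe set, with the filter at 6, quantile normalization, centred arrays or plain probe sets only. The median difference of the clock genes ran from -0.11 to 0.30 when an array was left out. The V1aKO minus WT difference in the index of phase likewise ran from -1.25 to 0.10. Signs turned within the ranges of Clock 1418659_at (-0.11 to 1.47) and 1418660_at (-0.15 to 0.21), Per1 (-1.35 to 1.51), Cry1 (-0.0065 to 0.12), Nr1d1 (-0.37 to 0.50), Nr1d2 (-0.40 to 0.79) and Dbp 1438211_s_at (-0.20 to 0.12, and 0.0075 with quantile normalization). The cause was not tested. With the replicate number as a block in limma, 1 of 13 passed the unadjusted threshold, Arntl at 0.83 (limma's adjusted p = 0.797), beside 684 of all 17228. Same-numbered arrays deviated together at 0.15 across tested probe sets, and 2 pairs are too few to show a pairing.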
